A study of Mus musculus with 8 samples.

Results

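The kinetochore and spindle checkpoint genes encode the protein assembly that ties each chromosome to spindle microtubules, and the signalling system that delays anaphase until every chromosome is attached. They were taken as every probe set (a group of probes that reads a single transcript) whose only gene symbol in the platform annotation starts with Cenp or is among 41 listed names, with Mlf1ip read as Cenpu, Apitd1 as Cenps and Casc5 as Knl1. The rule found 43 genes of the 18193 measured, read by 86 of 45037 probe sets. These are the 41 listed genes plus Cenpv and Cenpx. All 43 were kept, since the deposited values allowed no filter on level.

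RNA came from the established mouse fibroblast line NIH3T3, derived from embryos. The cells expressed mVenus-p27K-, a fluorescent reporter of the CDK inhibitor p27, as well as mCherry-hCdt1(30/120), a reporter of the licensing factor Cdt1, both introduced by transduction. All cells had been kept without serum and then for 5 h with 10% serum. Cells positive for both reporters were sorted as G0, and cells negative for mVenus and positive for mCherry as G1. Each group was measured on 4 Affymetrix arrays (8 in all), so the groups share the line, the transgenes, the starvation and the serum, and differ in the p27 reporter by which they were sorted. The comparison asks how cells still quiescent differ from cells already in G1. Nothing in the labels says that replicates were separate cultures, so the p-values here describe sample-to-sample spread that may be technical. In bulk RNA, more cells holding a transcript and more transcript per cell cannot be told apart.

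Inner centromere proteins mark and cover the centromere throughout the cell cycle. CENP-A, a histone H3 variant, replaces H3 there, and the constitutive centromere-associated network (CCAN) binds it. In mitosis the outer kinetochore is built on this base. The KNL1, MIS12 and NDC80 complexes together form the part that binds microtubules. The SKA complex strengthens the grip, and corona proteins capture microtubules first. Unattached kinetochores recruit the checkpoint proteins, which inhibit the anaphase-promoting complex. Many of these genes are known to be transcribed mainly from S phase to mitosis, and to be repressed in quiescence by the DREAM complex.

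Each value is a log2 expression (base taken as 2) with the probe set's median across the 8 arrays subtracted, so it shows how an array stood against the others and not how abundant the transcript was. The labels assign replicate 4 of each group to a second labelling protocol. The poly-A spike-in controls, added to RNA before labelling, were instead missing on the array titled G0 replicate 3 and on that titled G1 replicate 4 (medians of −7.12 and −6.40 over 24 probe sets, against −0.14 to 0.62 on the other 6). The main counts are therefore given with the labelled batch as covariate, with a batch set by presence of the spike-ins, and over the 6 arrays that have them. Array medians over all probe sets spanned 0.16. Fibroblast identity could not be checked by level. Among marker genes, 0 of 8 for fibroblasts, 0 of 4 measured for leukocytes, 0 of 4 for epithelium and 0 of 3 for endothelium passed the test in limma. Of all genes, 0.500% rose and 0.0220% fell in that test. Lists as short as these therefore cannot show whether the cell mix differed. At an unadjusted p under 0.05 there were 1 fibroblast gene (lower) and 1 endothelial gene (higher). Of all genes, 3.74% were lower and 4.33% higher at that p.

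Many transcripts of the kinetochore were several-fold more abundant in cells sorted as G1. Of the 43 genes, 15 rose at an adjusted p under 0.05 (limma, two-sided, Benjamini-Hochberg over all probe sets), 0 fell and 28 did not pass. That is 34.9% of the members, where 0.500% of all genes tested rose and 0.0220% fell. The median log2 difference, G1 minus G0, was 1.88 (3.69-fold), against −0.06 over all genes. A positive difference was found in 41 of the 43, against 44.7% of all genes, and 28 were at least 2-fold higher, against 7.64%. In 30 members every G1 array lay above every G0 array, which held for 3.79% of all genes, and in 0 members did the G0 arrays lie wholly above (3.28% of all genes). At an unadjusted p under 0.05, 30 were higher (4.33% of all genes) and 1 was lower (3.74%). With the spike-in batch as covariate 21 rose and 0 fell (0.929% and 0.0770% of all genes). Restricted to the 6 spiked arrays, 7 rose and 0 fell (0.165% and 0.00550% of all genes). By the labels, these 6 arrays hold the second labelling protocol in G0 only. That fit had no batch term, so group and protocol are partly mixed in it.

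**Figure D1:**
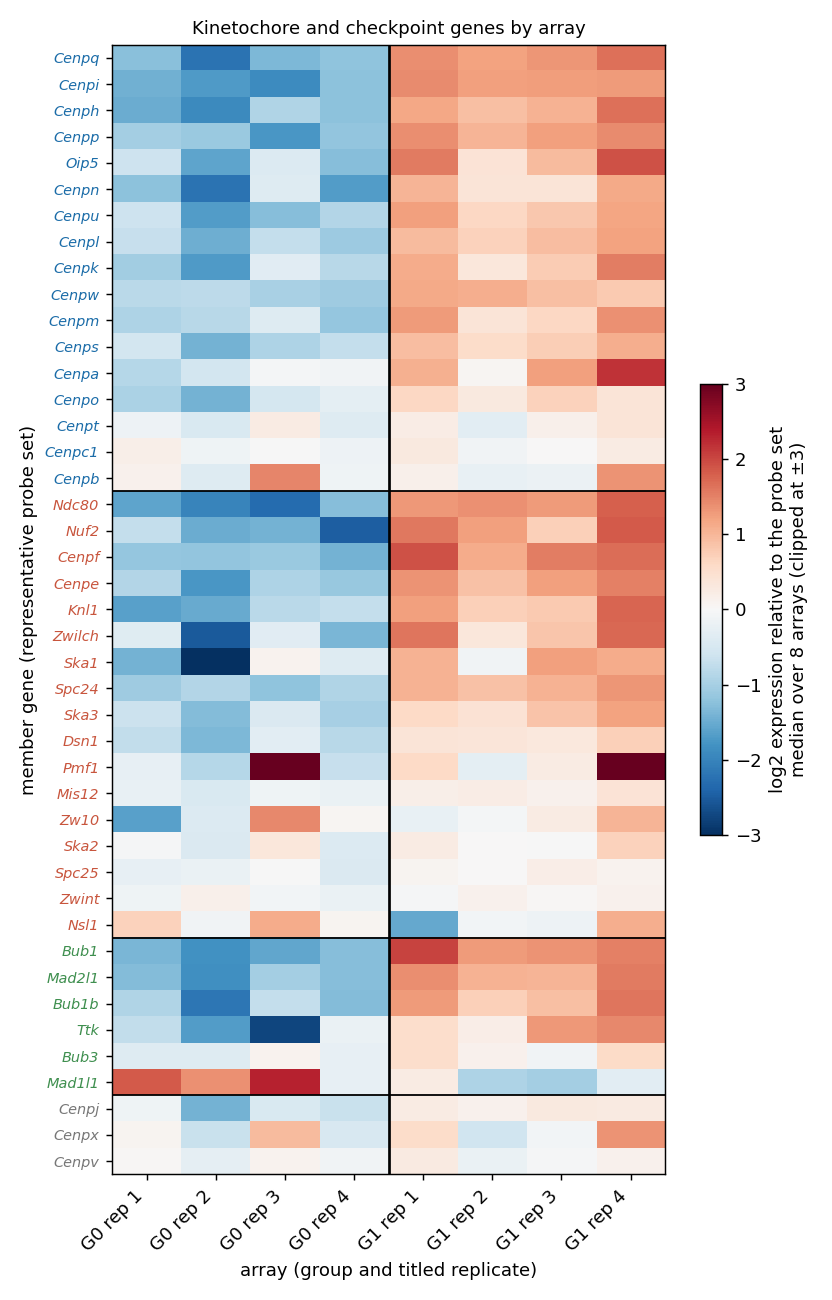
Log2 expression of each of the 43 member genes (rows, representative probe set, grouped as inner centromere, outer kinetochore, checkpoint and other Cenp-named genes) on the 8 arrays (columns), relative to the probe set's median and clipped at 3 in either direction. Most rows are blue on all 4 G0 arrays and red on all 4 G1 arrays, and pale or mixed rows such as Zwint, Cenpb and Mad1l1 stand at the bottom of each class.

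The count of 15 depended on single arrays. Without G0 replicate 1 it was 5 and without G0 replicate 3 it was 12, and without any of the other 6 arrays (G0 replicate 2 or 4, G1 replicate 1, 2, 3 or 4) it was 0, while between 27 and 30 members still had an unadjusted p under 0.05. The whole array behaved likewise: of all 45037 probe sets, 180 passed in either direction with all arrays, 46 without G0 replicate 1, 122 without G0 replicate 3 and 0 in those 6 fits, so the 0 is not particular to the members. In the fits without an array, the share of all genes at an unadjusted p under 0.05 was not counted. With all arrays, 4.33% of all genes were higher and 3.74% lower at that p. The smallest difference that any of the 15 took in those 8 fits was 1.57.

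Several promoters are shown because the members moved together and this class of gene is known for NF-Y sites, read as CCAAT on either strand, near the start. RefSeq promoter windows (GRCm38.p6, 250 bases before to 50 after the annotated start) were found for 39 of the 43 genes, 44 windows in all. Zwilch, Ska1, Spc24 and Nsl1 had none. Each line gives the 100 bases before the start, 5′ to 3′ on the gene's strand, with CCAAT or its reverse complement ATTGG in capitals. These members were chosen after their values were seen: Cenpq, Cenpf and Bub1 rose, Spc25 and Ttk rose on another probe set than the representative, and Zwint and Mis12 did not pass. Every promoter shown holds the motif in these 100 bases, whereas only 24 of the 39 genes hold it anywhere in a window. The lines are therefore examples of the motif and not a sample of the members.
Cenpq, chr17:40934575-40934674, minus strand: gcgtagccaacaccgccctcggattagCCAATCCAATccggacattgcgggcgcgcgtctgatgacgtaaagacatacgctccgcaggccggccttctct
Cenpf, chr1:189688087-189688186, minus strand: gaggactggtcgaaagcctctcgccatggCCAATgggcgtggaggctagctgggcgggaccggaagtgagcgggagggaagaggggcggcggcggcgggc
Spc25, chr2:69206214-69206313, minus strand: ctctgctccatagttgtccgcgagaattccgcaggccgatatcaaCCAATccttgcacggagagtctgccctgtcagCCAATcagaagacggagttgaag
Bub1, chr2:127831860-127831959, minus strand: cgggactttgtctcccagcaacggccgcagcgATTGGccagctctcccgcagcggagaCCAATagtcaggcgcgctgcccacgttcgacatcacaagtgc
Ttk, chr9:83834589-83834688, plus strand: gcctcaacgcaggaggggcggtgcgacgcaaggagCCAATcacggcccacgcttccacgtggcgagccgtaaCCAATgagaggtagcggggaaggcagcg
Zwint, chr10:72654746-72654845, plus strand: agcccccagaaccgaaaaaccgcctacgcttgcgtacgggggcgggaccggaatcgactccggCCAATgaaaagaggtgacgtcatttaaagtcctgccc
Mis12, chr11:71019511-71019610, plus strand: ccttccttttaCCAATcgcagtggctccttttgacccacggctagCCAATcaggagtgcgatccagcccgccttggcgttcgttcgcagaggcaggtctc

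Across all member windows, 28 of 44 held CCAAT on either strand (63.6%, against 37.4% of all 32851 windows in the table), and 17 held at least 2 (38.6%, against 11.7%). By gene, it stood in a window of 9 of the 14 genes that rose and had a window, and in 15 of the 25 that did not pass. TTTGAA, a form of the cell cycle homology region to which DREAM binds, was in 16 windows (36.4%, against 17.9%), and by gene in 5 of the 14 and 10 of the 25. In Bub1 the variant TTCGAA lay at bases 15 to 20 after the start, and 3 windows held that word (6.82%, against 1.56%). In Cenpw the CCAAT at −29 to −25 shares its last base with a reverse TTTGAA at −25 to −20. The E2F words TTTCGCGC and TTTGGCGC were in 1 window, that of Cenpl (2.27%, against 0.813%). These are matches of letters in a fixed window, both strands searched, and were not tested.

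At the inner centromere, 8 of 17 genes rose (47.1%, against 0.500% of all genes), 0 fell and 9 did not pass. In 14 the groups were separated completely with G1 above, which held for 3.79% of all genes. The class had a median difference of 1.92 (3.78-fold). Array by array, its median lay between −1.42 and −0.53 among G0 samples and between 0.41 and 1.29 among G1 samples. With the spike-in batch as covariate 11 rose, and on the 6 arrays with spike-ins 3 did (0.929% and 0.165% of all genes). The 8 are all genes of the CCAN, and the 3 genes whose groups overlapped were Cenpb, Cenpc1 and Cenpt.

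The 4 genes of the CENP-H, CENP-I, CENP-K and CENP-M group, which bridges CENP-C to the rest of the CCAN, were all separated between the groups. Cenpi read −1.44, −1.70, −1.90 and −1.23 on G0 replicates 1 to 4, and 1.43, 1.23, 1.27 and 1.29 on G1 replicates 1 to 4. The G1 arrays lay close together (SD 0.09), and the lowest stood 2.46 above the highest G0 array. It rose 7.32-fold (log2 difference 2.87, standard error (SE) 0.24, adjusted p = 0.00999). Cenph read −1.49, −1.92, −0.90 and −1.23 in G0 and 1.16, 0.90, 1.04 and 1.65 in G1, and rose 5.94-fold (2.57, SE 0.28, adjusted p = 0.0194). Cenpk (1.92, SE 0.35, adjusted p = 0.120) and Cenpm (1.74, SE 0.31, adjusted p = 0.111) did not pass with the labelled batch. Both passed with the spike-in batch (adjusted p = 0.0324 and 0.0229). Cenpk has 3 probe sets, of which 2 separated the groups, and their mean differed by only 0.92 (adjusted p = 0.717 in limma).

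CENP-L and CENP-N form a pair that reads the CENP-A nucleosome. Cenpl read −0.70, −1.46, −0.72 and −1.09 in G0 and 0.94, 0.70, 0.93 and 1.20 in G1, a rise of 3.82-fold (1.93, SE 0.26, adjusted p = 0.0334). G0 replicate 2 was its lowest array. Cenpn had a larger difference with more spread (2.11, SE 0.48, adjusted p = 0.249). Its 2 probe sets gave nearly the same value (2.11 and 2.12), and each separated the groups.

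Of the CENP-O, CENP-P, CENP-Q and CENP-U genes, whose products help recruit Polo-like kinase 1 to the kinetochore, 3 rose. Cenpq had the largest difference of the inner centromere. It read −1.25, −2.21, −1.34 and −1.20 in G0 and 1.39, 1.20, 1.32 and 1.66 in G1, so that G0 replicate 2 stood well below the others, and it rose 7.42-fold (2.89, SE 0.27, adjusted p = 0.0110). Cenpp read −1.03, −1.11, −1.75 and −1.18 in G0 and 1.39, 1.03, 1.24 and 1.41 in G1, and rose 5.79-fold (2.53, SE 0.24, adjusted p = 0.0110). A second Cenpp probe set gave the same size (2.55, adjusted p = 0.0110) and the remaining one a smaller value (1.13, adjusted p = 0.397). Cenpu read −0.62, −1.67, −1.28 and −0.87 in G0 and 1.22, 0.62, 0.82 and 1.19 in G1, and rose 4.20-fold (2.07, SE 0.30, adjusted p = 0.0462). Cenpo, the fourth subunit, differed by 1.30 on its representative (SE 0.31, adjusted p = 0.278). Its 6 probe sets spread from −0.71 to 1.30, and only those at 1.30 separated the groups.

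In the histone-fold group, CENP-T with CENP-W and CENP-S carries a second path from DNA to the NDC80 complex. Cenpw had the smallest SE of the genes that rose, and read −0.80, −0.79, −0.96 and −1.06 in G0 and 1.15, 1.09, 0.90 and 0.79 in G1. The SD was 0.13 in G0 and 0.17 in G1, and the rise was 3.69-fold (1.88, SE 0.18, adjusted p = 0.0110). Cenps rose 3.30-fold (1.72, SE 0.25, adjusted p = 0.0495), close to the threshold. Cenpt, the partner of Cenpw, differed by 0.31 (95% confidence interval −0.32 to 0.94, adjusted p = 0.892). Cenpx, the partner of Cenps, was not on the class lists and is not among the 17. Its groups overlapped and it differed by 0.34 (−0.86 to 1.53, adjusted p = 0.956).

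CENP-A itself and its loading factor gave intermediate values. Cenpa, whose protein defines the centromere, differed by 1.53 on the representative probe set (SE 0.40, adjusted p = 0.357). A second probe set read −0.97, −0.78, −0.65 and −0.72 in G0 and 0.70, 0.80, 1.00 and 0.65 in G1, and that one rose 2.97-fold (1.57, SE 0.20, adjusted p = 0.0277). The last, whose suffix marks possible cross-hybridisation, differed by 0.01. Oip5 (Mis18 beta, which prepares centromeres for new CENP-A) differed by 2.18 (SE 0.42, adjusted p = 0.135) and passed with the spike-in batch (adjusted p = 0.0390).

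Cenpc1 and Cenpb had the smallest differences of the class. Cenpc1, the gene of the CENP-C scaffold, read 0.17, −0.14, −0.00 and −0.15 in G0 and 0.29, −0.09, 0.00 and 0.26 in G1. The groups overlapped, and the interval of the difference was −0.33 to 0.62 (0.14, SE 0.20, adjusted p = 0.952). At Cenpb the scatter was wider. Cenpb, whose protein binds a motif of the satellite repeats, read 0.13, −0.39, 1.47 and −0.13 in G0 and 0.15, −0.22, −0.18 and 1.35 in G1. Its high values were on the 2 arrays without spike-ins, 1 in each group. The difference was 0.0044 (SE 0.52, interval −1.21 to 1.22), the smallest of the class, and its sign changes with the array left out.

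**Figure D2:**
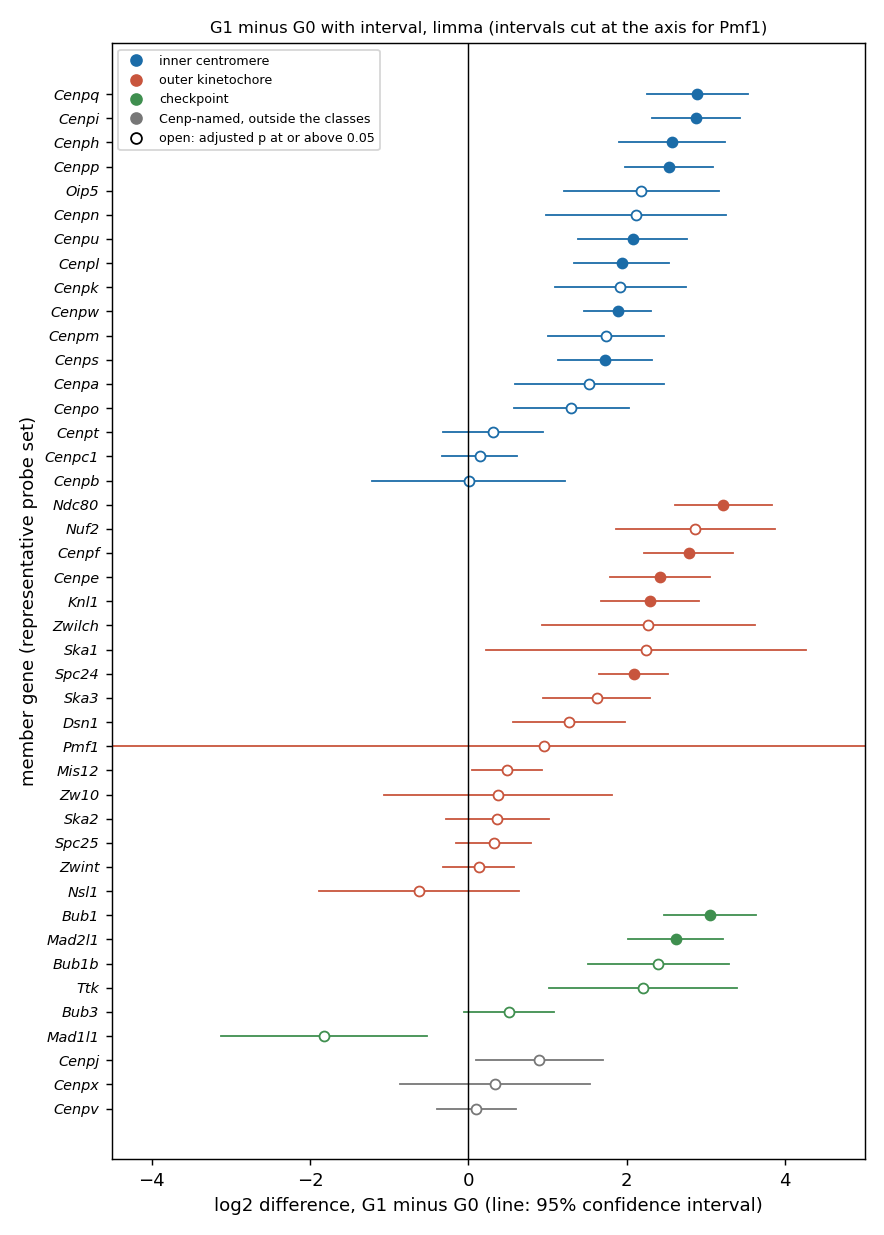
Log2 difference, G1 minus G0, of the representative probe set of each member gene (points) with its 95% confidence interval (lines), coloured by class; filled points have an adjusted p under 0.05 in limma. The filled points lie between 1.72 (Cenps) and 3.22 (Ndc80), Mad1l1 and Nsl1 lie left of 0, and the interval of Pmf1 runs past both ends of the axis.

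At the outer kinetochore, 5 of 17 genes rose (29.4%, against 0.500% of all genes), 0 fell and 12 did not pass. In 11 the groups were separated with G1 above, which held for 3.79% of all genes. The median difference was 1.62 (3.07-fold), with array medians of −1.19 to −0.32 for G0 and 0.34 to 1.20 for G1. With the spike-in batch 7 rose, and on the 6 arrays with spike-ins 3 did (0.929% and 0.165% of all genes). Single genes ranged from −0.62 to 3.22, against 0.0044 to 2.89 at the inner centromere.

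The NDC80 complex, the main microtubule coupler, had the largest median of the outer assemblies (2.47 over 4 genes). Ndc80 read −1.57, −1.97, −2.32 and −1.27 in G0 and 1.30, 1.38, 1.27 and 1.80 in G1. It had the largest difference among the representative probe sets of all members, 9.30-fold (3.22, SE 0.26, adjusted p = 0.00999), with a gap of 2.53 between the groups. Spc24 read −1.07, −0.88, −1.20 and −0.90 in G0 and 1.03, 0.88, 1.05 and 1.33 in G1, with an SD under 0.20 in each group, and rose 4.24-fold (2.08, SE 0.19, adjusted p = 0.0110). Nuf2, which pairs with Ndc80 in the coiled coil, differed by 2.86 but scattered more, with an SD of 0.72 in G0 (SE 0.43, adjusted p = 0.0547), and passed with the spike-in batch (adjusted p = 0.0390). Spc25 differed by 0.32 on its representative (adjusted p = 0.824), while its other probe set rose 6.59-fold (2.72, SE 0.35, adjusted p = 0.0310).

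KNL1 is the platform on which the BUB proteins assemble, and ZWINT is its partner. Knl1 read −1.62, −1.51, −0.82 and −0.72 in G0 and 1.24, 0.72, 0.78 and 1.74 in G1, and rose 4.89-fold (2.29, SE 0.27, adjusted p = 0.0212). A second Knl1 probe set gave 3.04 with a wide error (SE 0.89, adjusted p = 0.433). Zwint read −0.13, 0.16, −0.08 and −0.20 in G0 and −0.03, 0.12, 0.03 and 0.14 in G1. The groups overlapped, and the interval of the difference was −0.32 to 0.58 (0.13, SE 0.19, adjusted p = 0.954). All 7 Zwint probe sets had overlapping groups, with differences from −0.02 to 0.70.

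No representative probe set of the MIS12 complex, which links the CCAN to the NDC80 complex, passed in limma with either batch. Of its 4 genes, 2 had an unadjusted p under 0.05. These were Dsn1 (1.27, SE 0.30, adjusted p = 0.271) and Mis12 (0.49, SE 0.19, adjusted p = 0.647), and in both the groups were separated. Nsl1 had the lowest representative value of the class. It read 0.70, −0.10, 1.11 and 0.09 in G0 and −1.53, −0.09, −0.15 and 1.08 in G1, an overlapping scatter (−0.62, SE 0.54, adjusted p = 0.890). A second Nsl1 probe set separated the groups by 1.90 (SE 0.29). Its adjusted p was 0.0620, and 0.0395 once the spike-in batch was used. Pmf1 could not be read: it stood at 3.59 on G0 replicate 3 and 5.05 on G1 replicate 4, the arrays without spike-ins, and between −0.86 and 0.59 on the others, which left an interval of −6.11 to 8.02.

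The SKA complex gave the largest and some of the smallest values. The Ska1 probe set with the largest difference read −2.70, −4.18, −2.68 and −1.35 in G0 and 2.12, 1.35, 1.56 and 2.33 in G1, and rose 23.7-fold (4.57, SE 0.53, adjusted p = 0.0219). That was the largest difference of all 86 member probe sets. Another Ska1 probe set rose 5.79-fold (2.53, adjusted p = 0.0359), and the representative differed by 2.24 with overlapping groups (SE 0.86, adjusted p = 0.642). Ska3 differed by 1.62 (SE 0.29, adjusted p = 0.108), and passed once the spike-in batch was used (adjusted p = 0.0202). Ska2 differed by 0.37 and 0.13 on its 2 probe sets (adjusted p = 0.868 and 0.983), and on both the groups overlapped.

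Among the corona genes, Cenpf and Cenpe rose. Cenpf, a large coiled-coil protein that accumulates up to mitosis, read −1.15, −1.19, −1.12 and −1.42 in G0 and 1.91, 1.12, 1.55 and 1.67 in G1, a rise of 6.87-fold (2.78, SE 0.24, adjusted p = 0.00999). Its other probe sets gave 1.94 and 0.57 (adjusted p = 0.782 and 0.591). Cenpe, the kinesin that carries chromosomes to the metaphase plate, read −0.87, −1.75, −0.94 and −1.14 in G0 and 1.36, 0.87, 1.23 and 1.51 in G1, and rose 5.35-fold (2.42, SE 0.27, adjusted p = 0.0200). Zwilch and Zw10 encode parts of the complex that brings dynein and Mad1 to kinetochores. Zwilch differed by 2.27 (SE 0.58, adjusted p = 0.319), with G0 replicate 2 at −2.51 and G0 replicate 3 at −0.34. Zw10 differed by 0.37 on its representative (adjusted p = 0.965) and by −0.12 to 1.45 on its 3 other probe sets, none of which passed.

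Among the 6 checkpoint genes, 2 rose (33.3%, against 0.500% of all genes), 0 fell and 4 did not pass. The median difference was 2.30 (4.93-fold), and the array medians lay between −1.75 and −0.77 in G0 and between 0.45 and 1.48 in G1. In 4 genes the groups were separated with G1 above, which held for 3.79% of all genes. With the spike-in batch 3 rose, and on the 6 arrays with spike-ins 1 did (0.929% and 0.165% of all genes). Bub1, the kinase that recruits the other checkpoint proteins, read −1.37, −1.82, −1.55 and −1.28 in G0 and 2.02, 1.28, 1.35 and 1.52 in G1. The gap of 2.56 between its groups was the widest among the members that rose, and the rise was 8.29-fold (3.05, SE 0.25, adjusted p = 0.00999). Its other probe set gave a smaller separation (1.39, SE 0.33, adjusted p = 0.271). Mad2l1, whose product Mad2 binds and restrains the anaphase activator Cdc20, read −1.30, −1.84, −1.03 and −1.28 in G0 and 1.39, 1.04, 1.03 and 1.57 in G1, and rose 6.14-fold (2.62, SE 0.26, adjusted p = 0.0115).

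Bub1b and Ttk passed on another probe set than their representative. Bub1b encodes BubR1, the other Cdc20 inhibitor. It differed by 2.40 on the representative (SE 0.38, adjusted p = 0.0676, and 0.0229 once the spike-in batch was used) and rose 9.23-fold on a second probe set (3.21, SE 0.32, adjusted p = 0.0123). Ttk, the Mps1 kinase that starts the signal, differed by 2.20 on the representative (SE 0.51, adjusted p = 0.255) and rose 7.09-fold on its other probe set (2.83, SE 0.41, adjusted p = 0.0483).

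Bub3 and Mad1l1 did not pass on any probe set. Bub3, a WD40 adaptor for both BUB kinases, differed by 0.52 on the representative (interval −0.05 to 1.08, adjusted p = 0.731), and its 5 probe sets ranged narrowly from 0.51 to 0.80. Mad1l1, which holds Mad2 at kinetochores, read 1.85, 1.38, 2.30 and −0.24 in G0 and 0.24, −0.94, −1.01 and −0.31 in G1 on the representative. G0 replicate 4 fell among the G1 values. The difference of −1.82 was the lowest of all members (SE 0.56, adjusted p = 0.467), with an unadjusted p of 0.0127. On the second Mad1l1 probe set the difference was 0.07, with 3.12 on G0 replicate 3 and 3.67 on G1 replicate 4, the arrays without spike-ins.

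**Figure D3:**
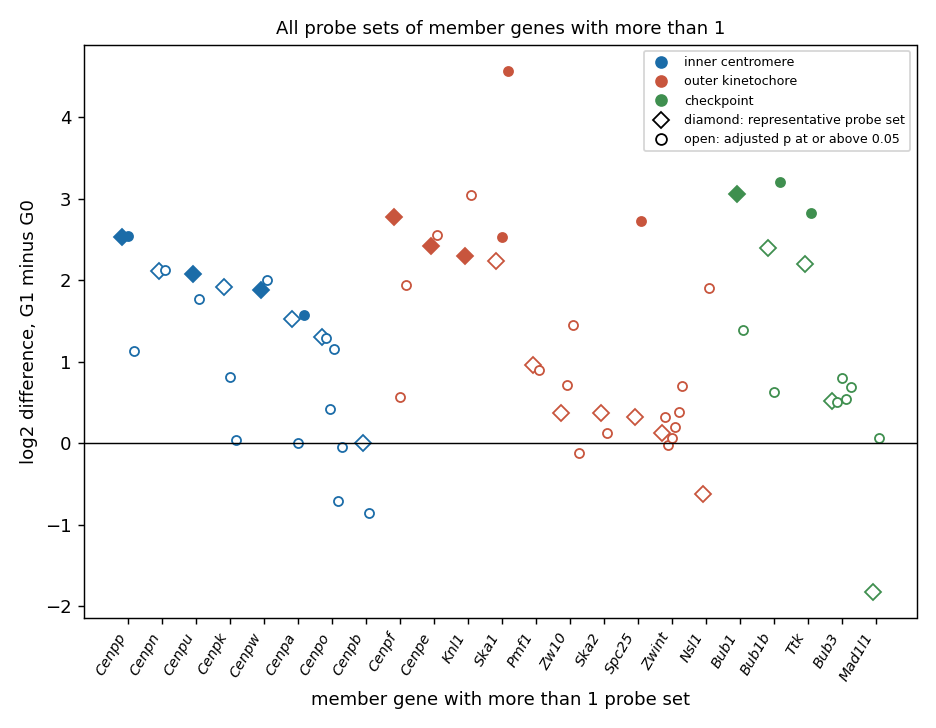
Log2 difference, G1 minus G0, of every probe set of the 23 member genes that have more than 1 (columns), coloured by class; diamonds are the representative probe sets and filled symbols have an adjusted p under 0.05 in limma. Probe sets of Bub3 and Zwint lie close together, whereas those of Ska1, Spc25, Nsl1 and Cenpo lie far apart.

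Probe sets of the same gene often differed, so the choice of representative mattered. Of the 86 member probe sets, 22 rose (25.6%, against 0.373% of all probe sets), 0 fell, and 50 had separated groups with G1 above (3.16% of all). With the spike-in batch 31 rose (0.702% of all), and on the 6 arrays 7 rose (0.0910% of all). Taking a gene as called when any of its probe sets rose, 20 of 43 members were called (46.5%, against 0.682% of all genes under the same rule). The 5 added were Cenpa, Spc25, Ska1, Bub1b and Ttk. By that rule 26 members were called with the spike-in batch (1.20% of all genes) and 7 on the 6 arrays (0.192%). Of the 23 genes with several probe sets, 17 had positive differences on all of them and 6 had mixed signs.

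Beside Cenpx, Cenpj and Cenpv were outside the classes. Cenpj, a centriole assembly factor, differed by 0.90 (SE 0.34, adjusted p = 0.642), and its groups were separated. Cenpv differed by 0.10 (interval −0.40 to 0.60, adjusted p = 0.974).

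Members tended to be low or high on the same arrays within a group. G0 replicate 2 gave the lowest G0 value in 27 of the 43 genes and G0 replicate 3 the highest in 25. In G1, replicate 2 was lowest in 31 and replicate 4 highest in 31. The same arrays held the lowest and highest medians over all 18193 genes in each group, −0.05 and 0.08 in G0 and −0.05 and 0.08 in G1. With each array centred on its own median, 17 members rose. Of all 45037 probe sets 213 then passed in either direction, against 180 without the centring.

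Differences were also taken apart by the presence of spike-ins. On those 2 arrays, 1 per group, the differences of the 15 ran from 1.75 to 4.12, and on the other 6 arrays from 1.63 to 3.04. With 1 array a group no test is possible there, and by the labels these 2 arrays belong to different labelling protocols. The class medians were 1.91, 1.47 and 2.46 on the 2 arrays for the inner centromere, outer kinetochore and checkpoint, and 1.93, 1.61 and 1.98 on the 6. Within the labelled batches they were 1.82, 1.42 and 2.31 for replicates 1 to 3 and 2.28, 2.21 and 2.22 for replicate 4. A probe set was highest on both arrays without spike-ins in 12 of the 86 member probe sets (13.95%), against 15.9% of all.

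**Figure D4:**
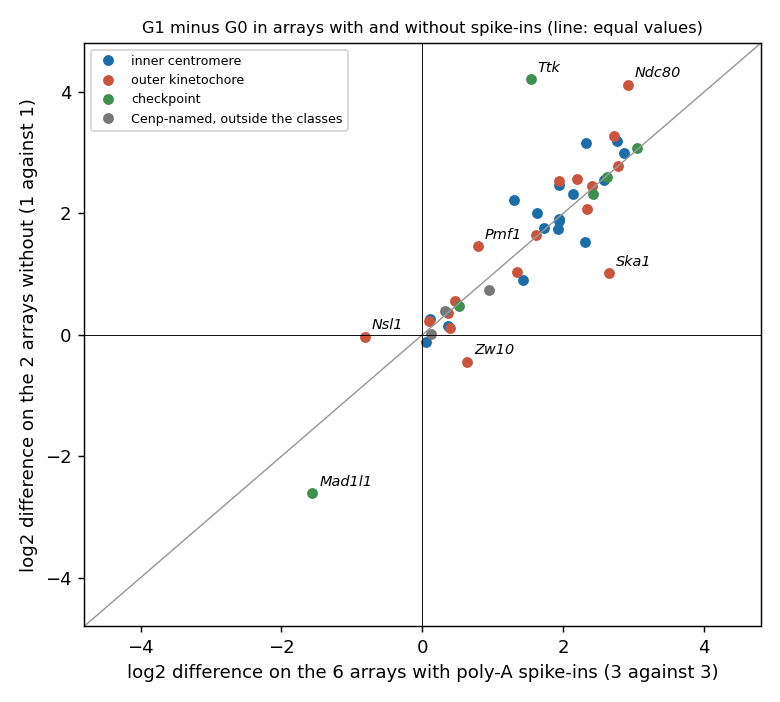
Log2 difference, G1 minus G0, of each member gene on the 6 arrays with poly-A spike-ins (horizontal axis, means of 3 arrays per group) and on the 2 arrays without (vertical axis, 1 array per group), coloured by class, with the line of equal values. Most genes lie near the line, Ttk and Ndc80 lie above it, Ska1 and Zw10 lie below it, and Mad1l1 is negative on both axes.

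Other genes of the kinetochore, from a list that holds no member, were also higher in G1. Of 24 measured, 11 rose, 0 fell and 13 did not pass, where 0.500% of all genes rose and 0.0220% fell. The median difference was 1.69 (3.22-fold), against −0.06 over all genes. With the spike-in batch 13 rose and on the 6 arrays 5 did (0.929% and 0.165% of all genes). All 4 subunits of the chromosomal passenger complex, which corrects wrong attachments, rose: Aurkb 11.3-fold (3.50, the largest of the list), Birc5 11.1-fold (3.47), Cdca8 5.65-fold (2.50) and Incenp 4.82-fold (2.27; adjusted p = 0.00999, 0.00889, 0.0110 and 0.0164). The kinases Plk1 (2.80, adjusted p = 0.00889) and Haspin (2.16, adjusted p = 0.0342) rose as well. The shugoshins Sgo1 and Sgo2a, which protect centromeric cohesin, rose by 2.33 and 2.46 (adjusted p = 0.0263 and 0.0246). The others were Spag5 (2.70, adjusted p = 0.00999), Ercc6l (2.08, adjusted p = 0.0110) and Trip13, which takes Mad2 complexes apart (2.11, adjusted p = 0.0421). The lowest value was that of the representative probe set of Kif2c (−0.73, SE 0.90, adjusted p = 0.940).

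Genes listed as markers of the G1/S step and of later phases differed in the same direction. The mCherry-hCdt1(30/120) gate is meant to leave out cells beyond G1. Since the list also holds genes of the G1/S step, its values cannot tell cells late in G1 from cells beyond it. Of 8 listed genes 7 were measured, and 2 rose (Ccna2 and Mki67), where 0.500% of all genes did. All 7 had separated groups with G1 above, which held for 3.79% of all genes. With the spike-in batch 6 rose, adding the G1/S cyclins Ccne1 and Ccne2, the helicase subunit Mcm5 and Cdc20 (adjusted p = 0.00598, 0.0190, 0.0290 and 0.0441 in limma). On the 6 arrays 2 rose. Of all genes 0.929% and 0.165% rose in these fits. The median of the list lay between −1.16 and −0.79 on the G0 arrays and between 0.76 and 1.22 on the G1 arrays. The part of cells beyond G1 in the differences of the kinetochore genes was not tested.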

How the data were processed

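Total RNA of sorted NIH3T3 cells was measured on 8 Affymetrix arrays, 4 per group by the titles. The deposited values are on a log2 scale. MAS5 is the method named, per the submitters' processing notes. The values show that each probe set was centred on its median over the arrays (largest absolute median 5e-07), so levels are lost. The sources used here do not state the log base. It was taken as 2, since values span −5.88 to 5.58 outside the controls. Of 45101 probe sets, 64 controls were left out. No member probe set had tied lowest values. A gene was represented by the probe set first in the order _at, _a_at, _s_at, _x_at, then by lowest number. Symbols outside the members were updated through GRCm38.p6 gene identifiers.

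Differences were fitted with limma 3.58.1 in R 4.3.3 (lmFit, eBayes with trend), with the labelling batch as covariate and Benjamini-Hochberg adjustment over 45037 probe sets, at a threshold of 0.05. The code was tested on simulated data. Array number limits precision. Full values are given for the 14 members with the smallest adjusted p and for each class's largest and smallest difference. Members, classes and lists were chosen with earlier results of these data known. Of 27 other kinetochore genes listed 24 were measured. Alternatives were other batch terms, the arrays with spike-ins, a replicate block, no trend, array centring, other probe set rules and leaving out each array. The choice of the probe set with the smallest residual SD was added after seeing the data.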

Additional observations from a re-analysis of the deposited data

Results flagged for a closer look

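A value standing far from the other 3 arrays of its group by Dixon's ratio, past its critical value for 4 samples, was found in 5 of 92 groups of values, where chance gives about 1 in 20. Cenpq in G0 had −2.21 on replicate 2, against −1.34 to −1.20 on the others. Pmf1 had 3.59 on G0 replicate 3 (others −0.86 to −0.25) and 5.05 on G1 replicate 4 (others −0.29 to 0.59). The representative probe set of Ska1 had −0.10 on G1 replicate 2 (others 1.05 to 1.24). The median of the checkpoint genes was −1.75 on G0 replicate 2, against −0.87 to −0.77 on the other G0 arrays.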

How the results depend on the processing

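The number of members that passed was 15 in the reported fit, 21 with the spike-in batch, 19 with no batch covariate, 17 with arrays centred, 18 with the mean of all probe sets, 18 with the quietest probe set and 12 without the trend. The totals moved too. Of all 45037 probe sets, 180 passed in the reported fit, 355 with the spike-in batch and 269 with no batch covariate. With arrays centred 213 did, and without the trend 132. With the mean of all probe sets 107 of 18193 genes passed. For the quietest probe set the total was not counted. On the 6 arrays with spike-ins 7 members passed, 3 of the inner centromere, 3 of the outer kinetochore and 1 of the checkpoint. Of the other kinetochore genes 5 did, and of all probe sets 44. Without the trend 5 inner centromere genes passed in place of 8. When probe sets were averaged, or when the quietest was taken, 4 checkpoint genes passed in place of 2. With the replicate block 0 passed in limma in each of these counts, with 30 members at an unadjusted p under 0.05. Across all 45037 probe sets 0 passed under the block too, so that loss is not particular to the members. The share of all genes at an unadjusted p under 0.05 was not counted under the block. Pairing by the titled numbers was not seen: the deviations of same-numbered arrays from their group means correlated at 0.07, 0.11, −0.14 and −0.14. The arrays without spike-ins carry different numbers in the 2 groups, and 15.9% of all probe sets were highest on both. These correlations therefore cannot decide whether the samples were paired. Leaving out each array in turn, the count ran from 0 to 12 for all members, 0 to 5 for the inner centromere, 0 to 5 for the outer kinetochore, 0 to 2 for the checkpoint and 0 to 8 for the other kinetochore genes. In 6 of these 8 fits 0 of all probe sets passed, and 46 and 122 did in the others, against 180 with all arrays. The fits without an array have fewer samples, and without replicate 4 of either group they compare replicates 1 to 3 only. The median difference of the outer kinetochore ran from 1.42 to 2.04, that of the inner centromere from 1.78 to 2.04 and that of the checkpoint from 2.15 to 2.54. Cenpb turned negative with the mean of its probe sets (−0.42) and without G0 replicate 1, 2 or 4 or G1 replicate 4 (−0.0041, −0.19, −0.49 and −0.49), and reached 0.47 without G0 replicate 3. Nsl1 turned positive with the mean of its probe sets (0.64) and with the quietest (1.90). The cause of these changes was not tested.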

Other observations

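Among the other kinetochore genes, some whose representative probe set did not pass rose on another one. These were looked at after their values were seen. Kif2c, the kinesin that takes microtubules apart at kinetochores, differed by −0.73 on the representative (adjusted p = 0.940), but 2 other probe sets rose by 2.44 and 2.72 (adjusted p = 0.0422 and 0.0200 in limma). Knstrn, the partner of Spag5, differed by 1.36 on the representative (adjusted p = 0.822) and rose by 2.20 on another probe set (adjusted p = 0.0257). Mis18a, which prepares centromeres for CENP-A together with Oip5, differed by 1.48 (adjusted p = 0.326) and rose by 1.73 on its other probe set (adjusted p = 0.0304). Cdc20, the anaphase activator that the checkpoint restrains, differed by 1.58 (adjusted p = 0.304) and rose by 1.57 on another probe set (adjusted p = 0.0344), so that only the error differed.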
